A study of Homo sapiens with 6 samples.

Results

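The genes described here are 10 genes read as a panel for epithelial-mesenchymal transition (EMT): the transcription factors ZEB1, ZEB2, SNAI1, SNAI2 and TWIST1, the cadherins CDH1, CDH2 and CDH3, and the mesenchymal markers VIM and FN1. They were taken by gene symbol from a table of 63241 genes, and each symbol matched 1 gene. The siUSP43 group was cells of T24, an established line from a human bladder carcinoma, transfected with small interfering RNA against the deubiquitinase USP43 (3 libraries). The siNC group was T24 cells transfected with a control small interfering RNA (3 libraries). Both groups were grown in serum-supplemented medium and lie in the same batch, per the labels. The study asked how USP43 acts on lipid metabolism in bladder cancer. The study used this line alone. Its labels leave unsaid whether replicates are separate cultures and whether 1 duplex or several served in siUSP43, and the p-values may therefore reflect technical spread alone.

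In EMT, epithelial cells lose the E-cadherin junctions that hold them to their neighbours and take on features of migratory, matrix-producing cells. The ZEB, SNAI and TWIST factors bind E-box sequences, and ZEB and SNAI proteins repress CDH1, the E-cadherin gene. Cells with a mesenchymal state often carry N-cadherin, vimentin filaments and fibronectin in place of E-cadherin. In bladder cancer, these genes are widely used to place a tumour or a line between epithelial and mesenchymal states.

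Total gene counts ran from 21430574 to 25577200 in the siUSP43 libraries and from 24049555 to 24594508 in the siNC libraries, and no 2 libraries of a group agreed within sampling noise. USP43 itself had 1.02, 0.67 and 0.80 FPKM (fragments scaled to exon length and library size) in siUSP43 cells, against 2.36, 2.09 and 2.08 FPKM in siNC cells, and it fell by 1.40 on the log2 scale (SE 0.14, edgeR quasi-likelihood test, adjusted p = 5.63e-06). Of 14 urothelial markers, 6 averaged at least 1 FPKM, among them KRT7 (184 FPKM in siUSP43 cells, 236 in siNC cells) and KRT18 (216 FPKM in siUSP43 cells, 198 in siNC cells). KRT7, KRT19 and the lineage factor FOXA1 were called lower and PPARG higher, while KRT8 and KRT18 were not called. FOXA1 averaged 2.85 FPKM in siUSP43 cells and 6.67 FPKM in siNC cells, and PPARG averaged 2.74 FPKM in siUSP43 cells and 1.92 FPKM in siNC cells. KRT5 and KRT20 had no count in any library, and the 4 uroplakins averaged at most 0.113 FPKM in either group. The summed level of the urothelial list was 470.94 to 534.2 FPKM in siUSP43 cells and 532.86 to 549.55 FPKM in siNC cells. Of 11 markers of other cell types, only EPOR averaged 1 FPKM or more over the 6 libraries, and 2, CD3E among them, had no count. The summed level of that list was 1.97 to 2.11 FPKM in siUSP43 cells and 5.09 to 5.54 FPKM in siNC cells, and the part of either list in the results was not tested. In bulk RNA, fewer cells of a type and less RNA per cell cannot be told apart.

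The panel moved in a few members and not as a block. FN1 fell steeply and SNAI2 fell moderately in siUSP43 cells, while VIM, CDH2 and ZEB1 did not pass the test. ZEB2, expressed just under 1 FPKM, was lower in all 3 siUSP43 libraries. CDH1 and TWIST1 had almost no reads or none in either group. Genes were tested where their mean over the 6 libraries was at least 1 FPKM, and a gene was called at a Benjamini-Hochberg adjusted p under 0.05 in edgeR's quasi-likelihood test. This filter kept 5 of the 10 genes, of which 2 were lower, 0 were higher and 3 were not called. The knockdown contrast was broad: 56.1% of the 11417 tested genes were called, 28.1% lower and 28.0% higher, so a call for 2 of 5 genes is no more frequent than for tested genes at large. The median log2 fold change of the 5 genes was -0.08, beside -0.01 over all tested genes.

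**Figure D1:**
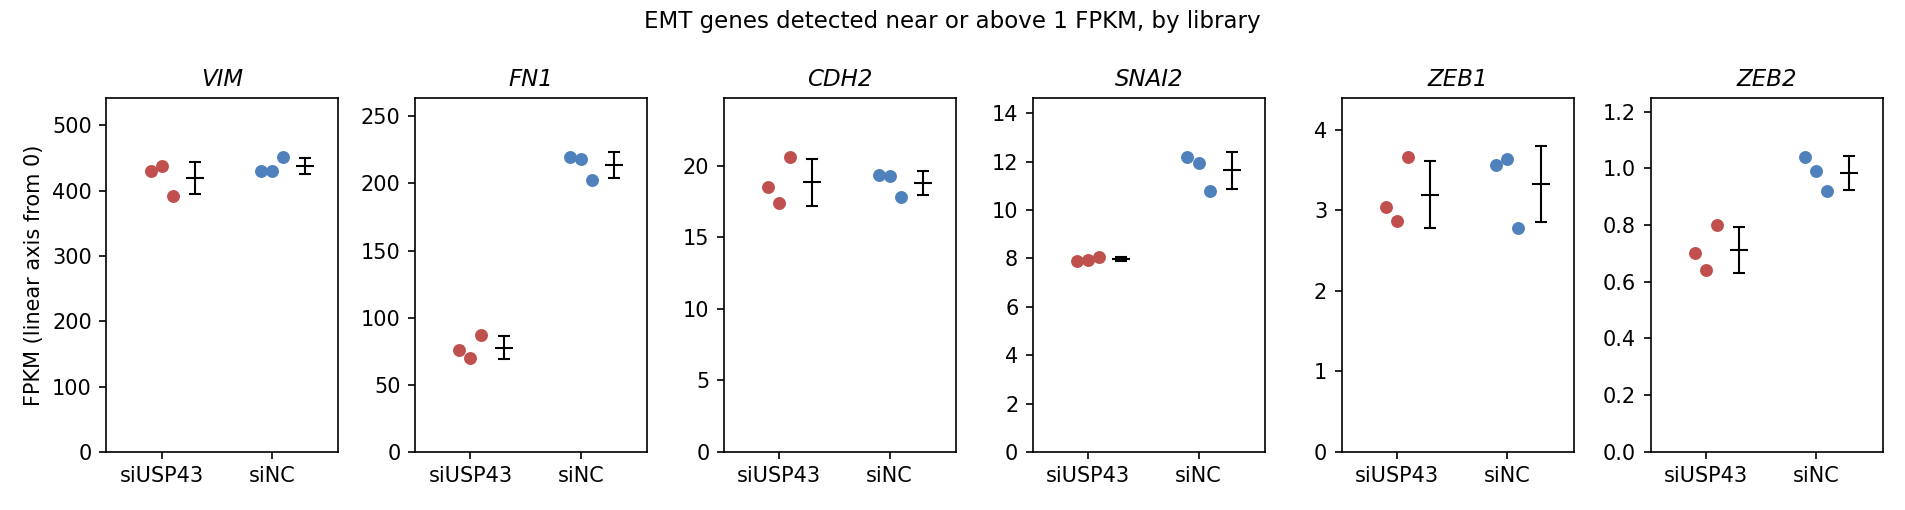
FPKM of the 6 genes at or near 1 FPKM in each siUSP43 library (left in each panel) and each siNC library (right), with mean and SD bars beside the points (n = 3 each) and a separate linear axis from 0 per gene. The groups stand apart for FN1, SNAI2 and ZEB2 and overlap for VIM, CDH2 and ZEB1.

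FN1 (ENSG00000115414, GRCh38 chr2:215360440-215436073, minus strand) encodes fibronectin, a secreted glycoprotein of the extracellular matrix that cells grip through integrins. It had 75.71, 70.04 and 87.28 FPKM in the siUSP43 libraries, against 219.73, 218.44 and 202.44 FPKM in the siNC libraries. The highest siUSP43 library lay far below the lowest siNC library. The means were 77.7 ± 8.79 FPKM in siUSP43 cells and 214 ± 9.63 FPKM in siNC cells (SD, n = 3 each). FN1 fell by 1.48 on the log2 scale (SE 0.07, 95% interval -1.63 to -1.32, edgeR adjusted p = 1.91e-08), that is, it was 2.78-fold lower in siUSP43 cells.

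The size of this drop is visible in the make-up of the libraries. FN1 took 0.154%, 0.142% and 0.178% of all gene counts in siUSP43 libraries, against 0.450%, 0.447% and 0.415% in siNC libraries. By read count it ranked 42nd, 53rd and 31st among all genes in the siUSP43 libraries, whereas it was the 8th most counted gene in each siNC library. Among the 3211 genes called lower, FN1 had the 67th largest decrease, and their median log2 fold change was -0.40. The groups' FPKM ranges did not overlap for FN1, as was the case for 62.2% of all tested genes.

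The promoter of FN1 is shown because FN1 carries the largest change of the panel. It is the RefSeq window from 250 bases before to 50 bases after the gene's start (GRCh38.p14, chr2:215436019-215436318, minus strand), and capitals mark a cAMP response element (CRE, TGACGTCA), a CCAAT box and 6 copies of the GC box GGGCGG, some of which overlap one another.
FN1 promoter: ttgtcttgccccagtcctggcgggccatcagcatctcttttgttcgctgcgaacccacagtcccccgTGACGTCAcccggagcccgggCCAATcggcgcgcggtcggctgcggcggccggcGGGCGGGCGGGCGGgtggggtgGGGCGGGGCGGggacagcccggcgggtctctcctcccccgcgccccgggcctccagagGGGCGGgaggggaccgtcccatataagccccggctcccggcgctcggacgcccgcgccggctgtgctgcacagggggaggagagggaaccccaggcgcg
The CRE starts 183 bases and the CCAAT box 162 bases before the gene's start. Searched on both strands, TGACGTCA occurs in 1.84% of the 34943 distinct promoter windows of this length, CCAAT or ATTGG in 34.6%, and GGGCGG or CCGCCC in 44.9%. The E-box core CAGGTG or CACCTG, the letters that SNAI and ZEB zinc fingers are known to read, is in 20.6% of these windows and not in this one. RefSeq windows were matched for 5 of the 10 genes. The E-box core was found in 2 of the 7 windows of ZEB1 and in none of those of CDH2, FN1, VIM and ZEB2, and the CRE was found in the FN1 window alone. A match is a description of letters, not of a bound site.

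VIM (ENSG00000026025, chr10:17228241-17237593, plus strand) encodes vimentin, the intermediate filament protein of mesenchymal cells. It had 429.19, 436.91 and 391.90 FPKM in the siUSP43 libraries, against 430.47, 430.65 and 451.39 FPKM in the siNC libraries. Replicate 3 is the lowest of the siUSP43 libraries and replicate 3 the highest of the siNC libraries, and the groups overlap. The mean was 419 ± 24.1 FPKM in siUSP43 cells and 438 ± 12.0 FPKM in siNC cells (SD, n = 3 each). The log2 fold change was -0.08 (SE 0.05, edgeR adjusted p = 0.197) with a 95% interval of -0.19 to 0.03, so FN1 and VIM, both read as mesenchymal markers, had intervals that did not meet. Per unit of length, VIM stood 5.67, 6.24 and 4.49 times above FN1 in the siUSP43 libraries and 1.96, 1.97 and 2.23 times above it in the siNC libraries.

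**Figure D2:**
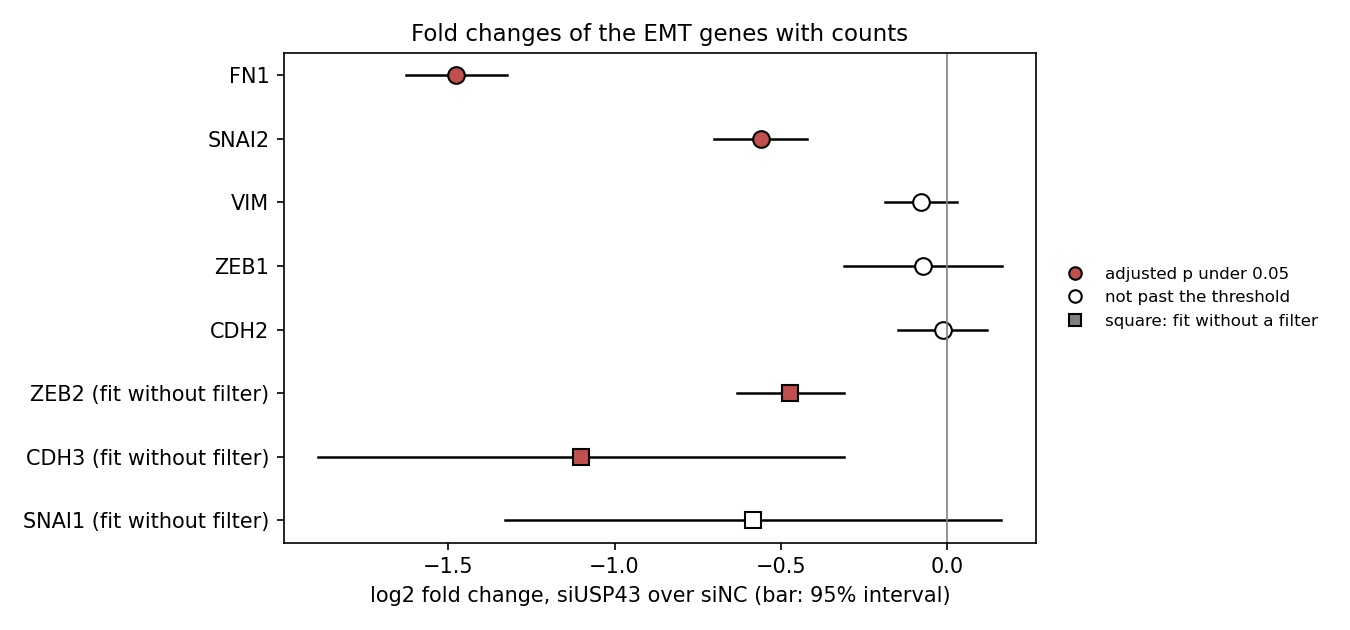
Log2 fold change, siUSP43 over siNC, of the 8 genes with enough counts for a fit, with 95% intervals; filled symbols passed an adjusted p of 0.05, and squares mark the fit without a filter on low values. FN1 at -1.48 and SNAI2 at -0.56 lie below 0, and the intervals of VIM, ZEB1 and CDH2 cross it. Of the squares, ZEB2 and CDH3 lie below 0 with their intervals, and the interval of SNAI1 crosses it.

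The cadherins are the adhesion proteins of adherens junctions. T24 cells of both groups carried N-cadherin and next to no E-cadherin or P-cadherin transcript. CDH2 (ENSG00000170558, chr18:27932879-28177946, minus strand), the N-cadherin gene, had 18.56, 17.40 and 20.63 FPKM in the siUSP43 libraries, against 19.34, 19.30 and 17.83 FPKM in the siNC libraries. The siUSP43 libraries include both the highest and the lowest value, so the groups overlap. The log2 fold change was -0.01 (SE 0.06, edgeR adjusted p = 0.876), with a 95% interval of -0.15 to 0.12. Its sign turned with the method and the libraries used. A tested gene without a symbol overlaps CDH2 on the other strand, with at most 47 counts in a library, or 0.883% of the CDH2 count.

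CDH1 (ENSG00000039068, chr16:68737292-68835537, plus strand), the E-cadherin gene, had 0 counts in each of the siUSP43 libraries, against 0, 3 and 1 counts in the siNC libraries. Both groups are at or under the limit that a count of 0 allows, 3 counts per library or 0.117 to 0.140 CPM (counts scaled to library size), so no fold is given. A floor of this kind covers counting error only. Set against 3 counts per library where CDH1 had 0, CDH2 was, per unit of length, at least 1123, 891 and 1263 times as abundant as CDH1 in the siUSP43 libraries, and at least 1119 times in siNC replicate 1.

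CDH3 (ENSG00000062038, chr16:68636189-68727468, plus strand), the P-cadherin gene and the neighbour of CDH1, had 12, 7 and 8 counts in the siUSP43 libraries, against 15, 14 and 30 counts in the siNC libraries. The siNC counts are all above the siUSP43 counts, by 2 counts at the closest pair, and siNC replicate 3 alone holds 30 of the 59 siNC counts. In the edgeR fit without a filter on low values, in which 12.0% of 33934 genes were called lower and 11.3% higher, CDH3 had a log2 fold change of -1.10 (SE 0.40, adjusted p = 0.0293). The call was lost without siNC replicate 3 (log2 fold change -0.67, edgeR adjusted p = 0.440), without siUSP43 replicate 2 (edgeR adjusted p = 0.0800), without siUSP43 replicate 3 (edgeR adjusted p = 0.0890), with DESeq2 (adjusted p = 0.130) and with limma. CDH2 made up 99.7%, 99.8% and 99.8% of the summed FPKM of CDH1, CDH2 and CDH3 in siUSP43 libraries, and 99.6%, 99.5% and 99.1% in siNC libraries.

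**Figure D3:**
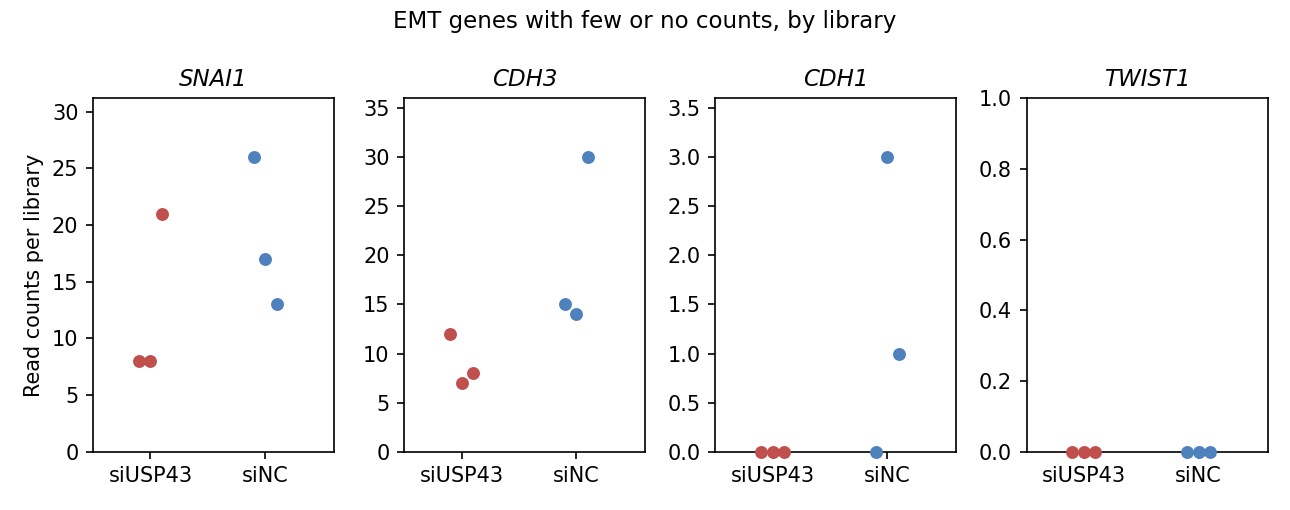
Read counts of SNAI1, CDH3, CDH1 and TWIST1 in each siUSP43 library (left) and each siNC library (right), 1 point per library. No library exceeds 30 counts, the CDH1 counts are 0 in the siUSP43 libraries and at most 3 in the siNC libraries, and TWIST1 has 0 in all 6.

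Of the transcription factors, the paired zinc finger and homeobox repressors ZEB1 and ZEB2 are described first. ZEB1 (ENSG00000148516, chr10:31318495-31529814, plus strand) had 3.04, 2.87 and 3.66 FPKM in the siUSP43 libraries, against 3.56, 3.64 and 2.78 FPKM in the siNC libraries. Replicate 3 was the highest siUSP43 library and the lowest siNC library, and the groups overlap. The log2 fold change was -0.07 (SE 0.11, edgeR adjusted p = 0.588), with a 95% interval of -0.31 to 0.16. The antisense gene ZEB1-AS1 overlaps ZEB1 and had 157, 119 and 183 counts in the siUSP43 libraries, against 135, 94 and 98 counts in the siNC libraries, up to 20.0% of the ZEB1 count. It rose by 0.49 on the log2 scale (SE 0.17, edgeR adjusted p = 0.0239), and since strand use was not stated, reads of the 2 genes cannot be told apart.

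ZEB2 (ENSG00000169554, chr2:144364364-144521057, minus strand) averaged 0.848 FPKM over the 6 libraries and so lay just below the filter. It had 547, 425 and 629 counts in the siUSP43 libraries, against 781, 755 and 703 counts in the siNC libraries. In FPKM these were 0.70, 0.64 and 0.80 in siUSP43 cells, against 1.04, 0.99 and 0.92 in siNC cells, and the groups do not overlap. In the edgeR fit without a filter, ZEB2 fell by 0.47 on the log2 scale (SE 0.08, 95% interval -0.63 to -0.31, adjusted p = 9.57e-08). With edgeR's own count filter the log2 fold change was -0.47 with an adjusted p of 3.45e-04, while limma on log2(FPKM + 1) gave -0.21 with an adjusted p of 0.0886 and on log2(FPKM + 0.1) -0.42 with an adjusted p of 0.0644. Per unit of length, ZEB1 exceeded ZEB2 by 4.34, 4.46 and 4.60 times in the siUSP43 libraries and by 3.41, 3.68 and 3.03 times in the siNC libraries.

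ZEB1 and ZEB2 are the best known targets of the miR-200 family of microRNAs, which ZEB proteins repress in turn. The mature sequences are given from RefSeq because the family's seeds define the sites found in the 3′ UTRs of these genes. Capitals mark the seed, bases 2 to 8 counted from the 5′ end. The first 3 share a seed, and the last 2 share another that differs from it at 1 base.
hsa-miR-200b-3p: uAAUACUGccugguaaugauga
hsa-miR-200c-3p: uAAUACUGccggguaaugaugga
hsa-miR-429: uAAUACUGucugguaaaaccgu
hsa-miR-200a-3p: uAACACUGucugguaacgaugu
hsa-miR-141-3p: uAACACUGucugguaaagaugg
The letters that pair with these seeds are CAGTATT and CAGTGTT. In 1 GENCODE 29 transcript per gene, the 3′ UTR of ZEB1 holds 9 such matches (6 and 3), that of ZEB2 holds 9 (5 and 4), that of FN1 holds 2, that of SNAI2 holds 1 and those of the other 6 genes hold 0. Examples from GRCh38 are printed on the gene's strand with the match in capitals.
ZEB1, chr10:31527618-31527642, plus strand: attgttttatcttatCAGTATTatc
ZEB1, chr10:31528031-31528055, plus strand: caaaatcatcagaatCAGTGTTtgt
ZEB2, chr2:144389050-144389074, minus strand: cgcactaccatacatCAGTATTttt
ZEB2, chr2:144389234-144389258, minus strand: tgcaaaaattttgtaCAGTGTTaag
FN1, chr2:215361301-215361325, minus strand: gtattcaataccgctCAGTATTtta
At the miRNA loci, MIR200C and its host gene MIR200CHG had 0 counts in all 6 libraries. MIR200A had 0, 0 and 1 counts in siUSP43 libraries, against 5, 1 and 3 in siNC libraries, and MIR200B had 0, 1 and 1 counts in siUSP43 libraries, against 1, 7 and 1 in siNC libraries. These are reads over the hairpin loci, and the mature miRNAs were not measured.

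SNAI1 (ENSG00000124216, chr20:49982980-49988886, plus strand) encodes Snail, a zinc finger repressor of CDH1. It had 8, 8 and 21 counts in the siUSP43 libraries, against 26, 17 and 13 counts in the siNC libraries. Replicate 3 of siUSP43 lies within the range of the siNC libraries. The log2 fold change in the edgeR fit without a filter was -0.58 (SE 0.38, adjusted p = 0.342), and its 95% interval of -1.33 to 0.16 is wide at these counts.

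SNAI2 (ENSG00000019549, chr8:48917598-48921740, minus strand) encodes Slug, the relative of Snail. Per unit of length, it was the most abundant of the 5 factors in both groups. It had 7.91, 7.95 and 8.07 FPKM in the siUSP43 libraries, against 12.19, 11.93 and 10.78 FPKM in the siNC libraries. The siUSP43 libraries lie close together, and all are below the siNC libraries. The mean was 7.98 ± 0.083 FPKM in siUSP43 cells and 11.6 ± 0.750 FPKM in siNC cells (SD, n = 3 each), and SNAI2 fell by 0.56 on the log2 scale (SE 0.06, 95% interval -0.70 to -0.42, edgeR adjusted p = 1.63e-05). Of the genes called lower, 30.1% fell further than SNAI2, against 2.06% that fell further than FN1. SNAI2 exceeded SNAI1, per unit of length, by 50.3, 42.9 and 19.8 times in siUSP43 libraries and by 22.8, 34.9 and 41.4 times in siNC libraries, and these ratios rest on at most 26 SNAI1 counts per library.

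TWIST1 (ENSG00000122691, chr7:19020991-19117636, minus strand), a basic helix-loop-helix factor, had 0 counts in all 6 libraries. The order of mean FPKM was the same in both groups, from VIM through FN1, CDH2, SNAI2, ZEB1, ZEB2, SNAI1 and CDH3 to CDH1 and TWIST1. Neighbours in this order had separate library ranges within each group, except CDH1 and TWIST1.

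The genes whose profile over the 6 libraries lay closest to those of FN1 and SNAI2 were sought among 10132 protein-coding tested genes, by the root mean square difference of mean-centred log2 CPM. For FN1 these were UGDH, which makes the UDP-glucuronate used for hyaluronan and other glycans (difference 0.051), the circadian repressor gene BHLHE41 (0.055) and PLA2G4A, a cytosolic phospholipase (0.064). UGDH had 13.0 ± 0.666 FPKM in siUSP43 cells and 35.7 ± 1.72 FPKM in siNC cells (SD, n = 3 each). For SNAI2 they were SH2B3, a signalling adaptor (0.024), AMPD3, an AMP deaminase (0.030), and TAF5L, a subunit of a histone acetyltransferase complex (0.037). SH2B3 had 31.2 ± 0.544 FPKM in siUSP43 cells and 45.9 ± 1.97 FPKM in siNC cells (SD, n = 3 each). With only 6 libraries, a small difference says little more than that the groups differ by a like amount.

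The 7 related lists give the surroundings of the panel, and every count in them is from the same edgeR test at an adjusted p under 0.05. Together they hold 129 genes, of which 72 were tested, 33 were higher and 25 lower in siUSP43 cells, beside 56.1% of all tested genes called in either direction. Of the 57 below the filter, the fit without a filter called 5 higher and 12 lower, beside 11.3% and 12.0% of its 33934 genes. Of 14 other EMT transcription factors listed, 8 were tested, 2 were higher, 5 lower and 1 was not called, beside 28.1% of all tested genes called lower, with a median log2 fold change of -0.38 beside -0.01 over all tested genes. LEF1, a partner of beta-catenin in Wnt signalling, fell by 1.11 on the log2 scale, with 0.93, 0.74 and 0.78 FPKM in siUSP43 cells against 1.74, 1.78 and 1.74 FPKM in siNC cells. SOX4 fell by 1.07 on the log2 scale, with 2.78, 2.51 and 2.38 FPKM in siUSP43 cells against 5.65, 5.48 and 4.83 FPKM in siNC cells. FOXC2, a forkhead factor, had a log2 fold change of -0.60. TCF3, whose E2A proteins bind E-boxes, went the other way, with 10.3 ± 0.452 FPKM in siUSP43 cells and 6.76 ± 0.156 FPKM in siNC cells (SD, n = 3 each). Of this list's genes below the filter, the fit without a filter called 2 lower, 0 higher and 4 neither. The lower ones were SNAI3 (log2 fold change -1.89, summed counts 29 in siUSP43 and 110 in siNC cells) and TCF4 (-0.61).

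The corepressors that ZEB, SNAI and related factors recruit went both ways: of 11 listed, 10 were tested, 5 were higher, 4 lower and 1 was not called. Of all tested genes, 28.0% were called higher and 28.1% lower. The list's median log2 fold change was 0.09. RCOR1, the CoREST scaffold that joins LSD1 to histone deacetylases, fell by 0.98 on the log2 scale, with 4.42, 4.32 and 5.05 FPKM in siUSP43 cells against 9.18, 9.13 and 8.54 FPKM in siNC cells. AJUBA and LIMD1 are related LIM proteins that bind SNAI factors, and they parted: AJUBA rose by 0.75 and LIMD1 fell by 0.67 on the log2 scale. HDAC1, a histone deacetylase, and SMARCA4, the BRG1 ATPase, had log2 fold changes of 0.33 and 0.30. The lower count was 2 in place of 4 without siNC replicate 1, without siNC replicate 2, with the replicate number as a block and with no filter.

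Of 16 other classical cadherins and relatives, 4 were tested, of which 3 were higher, 0 lower and 1 was not called in edgeR, beside 28.0% of all tested genes called higher. The higher count was 2 with no filter, with the replicate block, with DESeq2 and with any library but siUSP43 replicate 2 left out, and CDH4, with an edgeR adjusted p of 0.0395, was at 0.0830 with no filter. The fit without a filter called 1 further gene lower, CDH6 (log2 fold change -3.73), which averaged 0.013 FPKM in siUSP43 cells and 0.167 FPKM in siNC cells. CDH10 rose by 1.49 on the log2 scale, with 2.39 ± 0.190 FPKM in siUSP43 cells and 0.840 ± 0.062 FPKM in siNC cells (SD, n = 3 each). CDH13, which has no cytoplasmic tail and overlaps HSBP1, and CDH4 had log2 fold changes of 0.25 and 0.15. Of 17 catenins and other adherens junction partners, 15 were tested, 6 were higher, 4 lower and 5 were not called. Shares over all tested genes were 28.0% higher and 28.1% lower, and the list's median log2 fold change was 0.10. CTNNB1, the beta-catenin gene, had 22.3 ± 1.68 FPKM in siUSP43 cells and 27.4 ± 1.18 FPKM in siNC cells (SD, n = 3 each), and its log2 fold change was -0.31. ADAM10, a protease that sheds cadherins and whose locus overlaps a tested gene without a symbol, had a log2 fold change of -0.52, and EPB41L5, a membrane scaffold, one of -0.33. PKP4 of the p120 catenin family and the nectin gene NECTIN3 rose by 0.45 and 0.33 on the log2 scale.

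Epithelial genes other than keratins did not move as a block: of 33 listed, 12 were tested, 4 were higher, 3 lower and 5 were not called. Their median log2 fold change was -0.08. Over all tested genes, 28.0% were called higher and 28.1% lower. PATJ, a polarity scaffold, and CGN, the cingulin gene of tight junctions, rose by 0.71 and 0.36 on the log2 scale. SPINT1, a serine protease inhibitor, and PPL, the periplakin gene, fell by 0.54 and 0.38. PKP3, a desmosomal plakophilin, rose by 0.28. The higher count was 2 without siNC replicate 1. The fit without a filter called 11.3% of its 33934 genes higher and 12.0% lower. Of the 21 epithelial genes below the filter, this fit called 4 higher, 5 lower and 12 neither, and 1 of these 21 had no count in any library. These 9 genes are named because of their calls. The 4 higher ones were EPCAM (1.24 FPKM in siUSP43 cells, 0.587 in siNC cells), OCLN (0.953 FPKM in siUSP43 cells, 0.513 in siNC cells), ESRP2 (0.307 FPKM in siUSP43 cells, 0.163 in siNC cells) and GRHL1 (0.490 FPKM in siUSP43 cells, 0.303 in siNC cells). The 5 lower ones were LSR (0.473 FPKM in siUSP43 cells, 1.06 in siNC cells), TJP3 (log2 fold change -1.50), CLDN7 (-0.89), LLGL2 (-0.80) and CDS1 (-0.53).

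**Figure D4:**
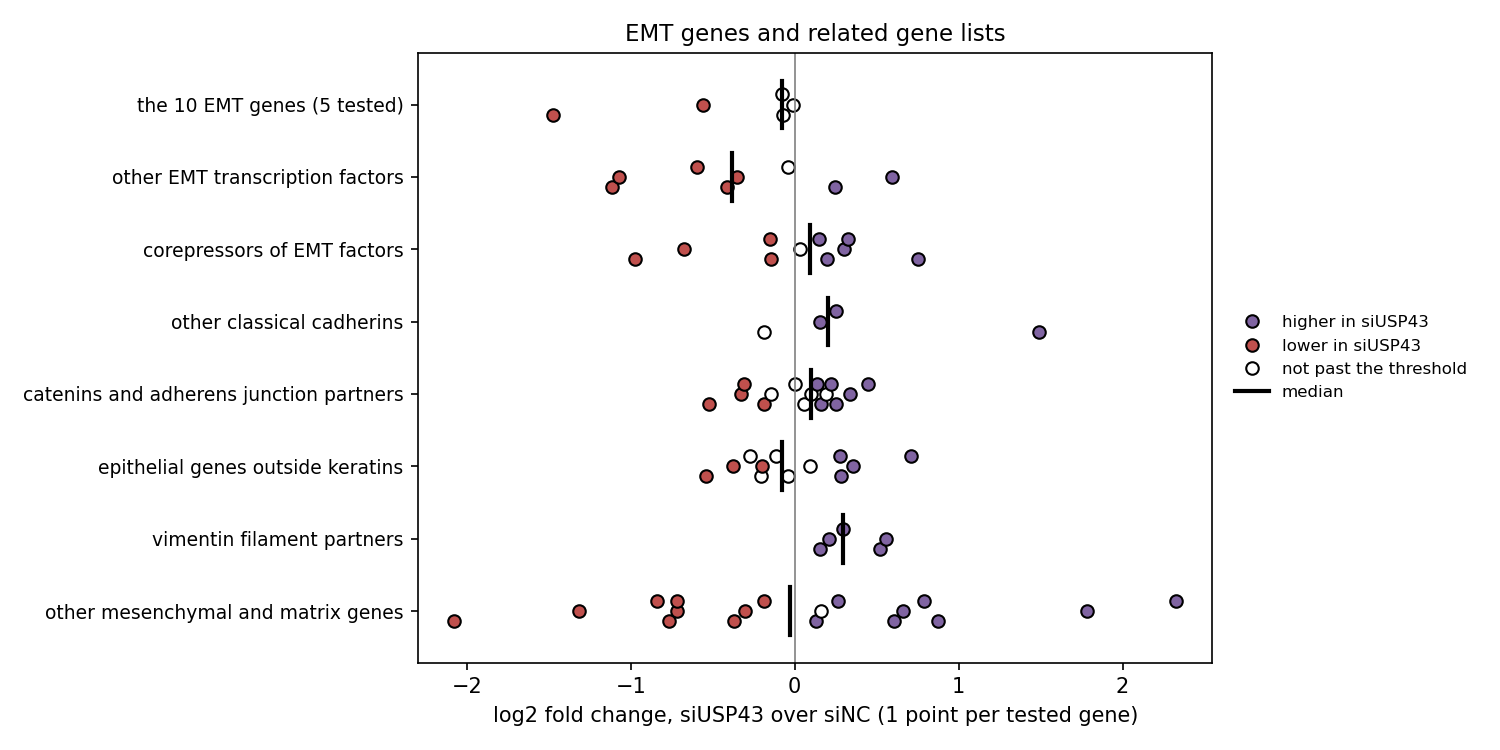
Log2 fold change, siUSP43 over siNC, of each tested gene of the 10-gene panel and of 7 related lists, 1 point per gene, coloured by call, with the list median as a bar. Points of most lists fall on both sides of 0, while the 5 tested genes of the vimentin filament partner list, nuclear lamins among them, lie above it.

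Of 8 genes on the vimentin filament partner list, 5 were tested and all 5 were higher, beside 28.0% of all tested genes. The tested genes were SYNM, PLEC and the nuclear lamin genes LMNA, LMNB1 and LMNB2, so the count is not one of vimentin partners alone. Their median log2 fold change was 0.30. The other 3, DES, NES and EPPK1, were below the filter, and the fit without a filter called none of them. SYNM, whose product synemin joins vimentin filaments, rose by 0.56 on the log2 scale, with 1.90, 1.68 and 1.82 FPKM in siUSP43 cells against 1.29, 1.18 and 1.16 FPKM in siNC cells. The nuclear lamin genes LMNB1, LMNA and LMNB2 rose by 0.52, 0.30 and 0.21, and PLEC, the linker plectin, rose by 0.15 on the log2 scale. Leaving out 1 library at a time gave 4 or 5 calls.

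Among the tested genes of the related lists, the other mesenchymal and matrix genes held the widest changes, in both directions. Of 30 listed, 18 were tested, 8 were higher, 9 lower and 1 was not called, with a median log2 fold change of -0.03. Of all tested genes, 28.0% were called higher and 28.1% lower. AXL, a receptor tyrosine kinase, fell by 2.08 on the log2 scale, with 20.8 ± 0.954 FPKM in siUSP43 cells and 86.5 ± 2.34 FPKM in siNC cells (SD, n = 3 each). ACTA2, the smooth muscle actin gene, rose by 2.33 on the log2 scale, with 3.88, 3.88 and 3.41 FPKM in siUSP43 cells against 0.71, 0.86 and 0.63 FPKM in siNC cells. ACTA2 overlaps FAS and STAMBPL1, whose reads cannot be told apart from its own without strand. TAGLN, an actin-binding protein of smooth muscle, and COL5A2, a chain of type V collagen, rose by 1.78 and 0.88 on the log2 scale. AXL, like FN1, was lower in all 3 siUSP43 libraries than in any siNC library. Groups did not overlap for 17 of the 18 tested genes of this list and for 62.2% of all tested genes. Of the 12 list genes below the filter, the fit without a filter called 3 lower, 0 higher and 9 neither. This fit called 12.0% of its 33934 genes lower and 11.3% higher. The lower ones were COL1A2 (log2 fold change -2.38), COL3A1 (-1.37) and THY1, all at low counts. The list's summed level was 685.92 to 701.4 FPKM in siUSP43 cells and 1072.66 to 1086.64 FPKM in siNC cells.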

How the data were processed

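The deposited table holds raw read counts, FPKM values and an exonic size for each of 63241 genes in 6 libraries, per the file headers. Per the labels' protocols, 2 µg of total RNA per sample, extracted with TRIzol, entered library construction. Per the submitters' processing notes, cutadapt 2.6, HISAT2 2.2.1 and GRCh38 were used. How reads were counted, on which annotation, with which strand and multiple-mapping settings, is not given in the sources used here, so reads of overlapping genes and of near-identical copies may be divided or mixed.

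Groups and replicate numbers came from the sample titles. Raw counts, as the authors deposited them, were tested in edgeR 4.0.16 (R 4.3.3) with TMM scaling, a quasi-likelihood fit and group as the only term, two-sided, with Benjamini-Hochberg adjustment over 11417 genes that averaged 1 FPKM or more (USP43 and E2F1 were exempt). Members below that filter were taken from the same fit without a filter, over 33934 genes with at least 1 count. The SE is the log2 fold change divided by the square root of F. FPKM, scaled by the authors to exonic size and library total, was used for levels. Alternatives used DESeq2 1.42.0, limma 3.58.1 on log2(FPKM + 1) and log2(FPKM + 0.1), other scalings and filters, a replicate block and each library left out. The scripts were tested on simulated data. Total counts of 21430574 to 25577200 per library set the precision of low genes, and floors cover counting error only. Intervals rest on the spread between replicates. The fit without a filter pooled this spread over genes, so that a gene's own spread had almost no weight. FN1 had an edgeR adjusted p of 1.37e-241 in that fit and 1.91e-08 in the main fit. Adjusted p-values of these fits are therefore not comparable.

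Promoter and miRNA sequences are RefSeq's (GRCh38.p14), and 3′ UTRs are from GENCODE 29 (GRCh38). The members and the gene lists were chosen with earlier results of these data known. Named from each list were up to 5 called genes with the largest fold change, and for each called member the 3 genes of most similar profile. Some genes that this rule selects are not reported here.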

Additional observations from a re-analysis of the deposited data

How the results depend on the processing

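FN1, SNAI2 and USP43 kept their direction and their call, and VIM and ZEB1 their direction and lack of a call, under all 15 alternatives run, and the log2 fold change of FN1 was -1.57 to -1.41 with each library left out. The sign of CDH2 turned with limma (6.04e-04 with a pseudocount of 1 and 5.21e-04 with 0.1) and spanned -0.081 to 0.041 with each library left out, never with a call. CDH3 lost its call with limma (-0.080 and -0.48) and DESeq2 (-1.10), and spanned -1.30 to -0.67 with each library left out. ZEB2 lost its call with limma (-0.21 and -0.42). With no filter and with edgeR's own filter, 4 of the 10 genes were called lower, since ZEB2 and CDH3 then entered. Of all genes, the fit with no filter called 4070 lower and 3837 higher of 33934. The fit with edgeR's own filter called 3967 lower and 3902 higher of 16280. With the same 2 filters, classical cadherins called lower numbered 1 and 1, epithelial genes called higher 8 and 9 and called lower 7 and 8, because more genes were tested. With each library left out, epithelial genes called higher numbered 2 to 5 and corepressors called lower 2 to 4. Corepressors called lower numbered 2 with no filter, where CTBP1 and KDM1A lost their calls. The edgeR adjusted p of CTBP1 was 0.0138 in the main fit and 0.0739 with no filter. For KDM1A it was 0.0264 and 0.0579, and the cause was not tested.

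Same-numbered samples did not deviate together (correlations of -0.01, -0.13 and -0.26), and 0 of the 6 libraries correlated best with its own number. With 3 libraries per group, deviations from the group mean depend on one another, so these values cannot decide whether samples were paired. With the replicate block, 2775 genes were higher and 2841 lower, corepressors called lower numbered 2, and no call among the 10 genes changed. Over all alternatives, genes called higher numbered 2718 to 3902 and lower 2710 to 4070. Depth limits CDH1, CDH3, SNAI1 and TWIST1, each with at most 30 counts per library.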
